A study of Homo sapiens with 3 samples.

Results

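The splicing regulators described here are 34 genes: 12 genes of the SR and TRA2 group, 17 hnRNP genes (PTBP1 and PTBP2 included), the 3' splice site factors U2AF1 and U2AF2 with their relative RBM39, and the kinases CLK1 and CLK4. Their probes were taken by the gene symbol of the platform annotation, which gave 64 of the 47323 probes on the array. A probe was used where its detection p was under 0.01 on at least 1 array, which kept 63 of the 64 and all 34 genes, out of 20119 detected probes in all. The probe left out was 1 of the 3 for SRSF10, with raw signals of 50.7, 48.9 and 47.0 on the siRNA 1, siRNA 2 and control arrays.

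The cells were 293T, a human embryonic kidney line that carries the SV40 large T antigen and that the series text calls metastatic. The first group was 293T cells transfected with an siRNA against TARBP2, with 1 array for siTARBP2-1 (siRNA 1) and 1 array for siTARBP2-2 (siRNA 2). The other group was 1 array of 293T cells given siControl, a control that the series text calls mock-transfected. All 3 were transfected with the same lipid reagent, and total RNA was taken 48 h later. Nothing in the labels tells whether the 3 came from separate cultures, so the spread between the siRNA arrays may be technical, and the control has no replicate of its own. TARBP2, the double-stranded RNA binding partner of DICER1, had log2 signals of 6.25 with siRNA 1 and 6.07 with siRNA 2, against 8.36 with siControl, at its brighter probe.

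SR proteins carry an RNA recognition motif and a domain rich in arginine and serine, and many of them bind exonic enhancers and recruit the spliceosome to nearby splice sites. The hnRNP proteins coat nascent transcripts, and several of them, such as hnRNP A1 and PTBP1, often oppose exon inclusion. CLK kinases phosphorylate SR proteins in the nucleus. Many SR and hnRNP genes also tune their own level by splicing in a poison exon or a retained intron, so that probes of one gene can report on different transcripts.

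The arrays differed in mean raw signal, at 680.4 for siRNA 1, 514.3 for siRNA 2 and 528.5 for the control, and between 18449 and 19155 probes were detected on each. Signals were background corrected and quantile normalized, and all levels below are on that log2 scale unless called raw. A level of one probe cannot be set against that of another. Of 10 genes listed as marks of 293T cells, 8 had a detected probe, among them VIM, NEFM, NEFL, EYA1 and LIN28B, while PAX2 was not detected. Of 10 markers of other cell types, 6 had a detected probe (ALB, CDH1, COL1A1, CAV1, S100A4 and CD44), and PTPRC, HBG1, TGFBI and PECAM1 were not detected. Their part in the results was not tested.

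TRA2A and HNRNPH1 were the 2 genes of the set with probes more than 1.5-fold below the control with both siRNAs. TRA2A, an activator that binds GAA-rich exonic enhancers, had a log2 signal of 6.13 with siRNA 1 and 7.57 with siRNA 2, against 8.42 with siControl. Both knockdown arrays were below the control, and the siRNA 1 array was the lowest. The raw signals in the same order were 130.2, 205.4 and 355.8, so the order did not depend on the normalization.

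TRA2A was thus 4.92-fold lower with siRNA 1 (log2 difference -2.30) and 1.81-fold lower with siRNA 2 (-0.86). Over both siRNAs TRA2A averaged -1.58 with a moderated SE of 0.54, from 2 arrays of knockdown cells and the 1 control. These differences had an SD of 1.02, and TRA2A did not pass limma's moderated test over all detected probes (adjusted p = 0.9999). The targeted gene TARBP2, with mean differences of -2.20 and -1.73 at its probes, did not pass limma's test either. With 1 control array, not passing is thus no sign that a level was unchanged, here or below. That TRA2A was lower with both siRNAs was known when the genes were chosen, so its direction is a description. It has 1 probe on the array (ILMN_1731043, annotated to NM_013293), while RefSeq lists 7 curated transcripts for the gene on chromosome 7, so isoforms of TRA2A could not be compared.

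TRA2B, the paralog of TRA2A with the same kind of binding site, lay near the control. Its log2 signal was 11.83 with siRNA 1 and 11.64 with siRNA 2, against 11.63 with siControl. The differences were 0.20 and 0.01, with a mean of 0.10 ± 0.25 (SE), smaller than its error.

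HNRNPH1 encodes hnRNP H1, which binds runs of G and can enhance or silence an exon by its position. All 3 of its probes were lower on both knockdown arrays than on the control array. Probe ILMN_3246409, the brightest, had a log2 signal of 11.79 with siRNA 1 and 12.10 with siRNA 2, against 12.69 with siControl. Probe ILMN_2101920 had 10.29 with siRNA 1 and 10.57 with siRNA 2, against 11.49 with siControl.

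The dimmest, ILMN_2101928, had 7.33 with siRNA 1 and 7.13 with siRNA 2, against 7.68 with siControl. At no HNRNPH1 probe did the groups overlap, which with 1 control array means only that both siRNAs lay below it. Of all detected probes, 29.1% lay below the control with both siRNAs and 30.9% above. In log2 terms ILMN_2101920 differed by -1.20 and -0.92 with siRNA 1 and siRNA 2, with a mean of -1.06 ± 0.26 (SE), or 2.08-fold lower, and an SD of 0.20 between the siRNAs. ILMN_3246409 differed by -0.90 and -0.59 (mean -0.75 ± 0.26, 1.68-fold lower), and ILMN_2101928 by -0.36 and -0.55 (mean -0.45 ± 0.25, 1.37-fold lower).

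None of the 3 HNRNPH1 probes passed limma's test over all detected probes (adjusted p = 0.9999 for each). At each probe the mean difference exceeded the SD between the siRNAs. That SD leaves out the error of the control array that both differences share, so it is no measure of how sure the difference is. Raw signals at ILMN_2101920 were 1647.1 and 1347.2 with siRNA 1 and siRNA 2, against 2690.8 with siControl, the same order of groups. At ILMN_2101928 the raw signal of siRNA 1 (248.2) was above that of siControl (230.1), while siRNA 2 gave 163.4, so there the siRNA 1 difference rests on the normalization. HNRNPH2, the closest paralog of HNRNPH1, gave no such difference, with mean differences of -0.04 and 0.32 at its probes, although an array cannot tell apart the transcripts of close relatives that bind one probe.

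**Figure D1:**
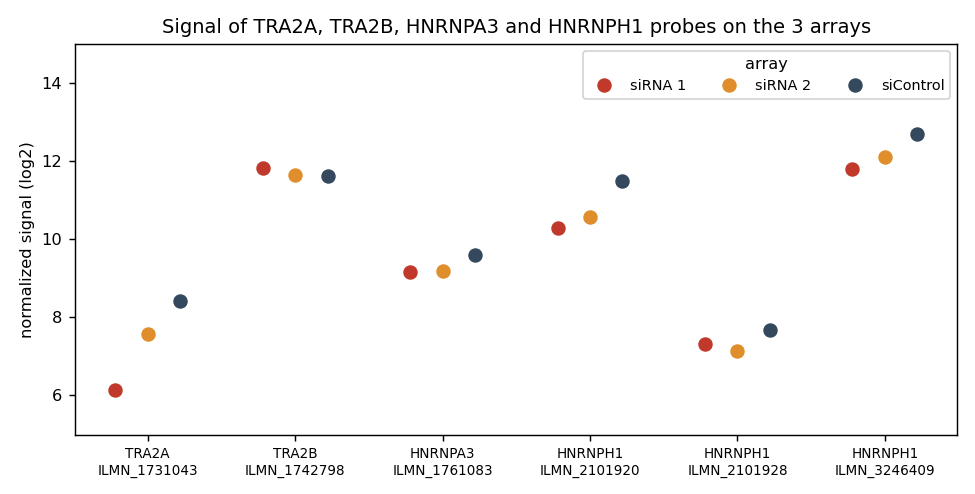
Normalized log2 signal (vertical axis) of the probes of TRA2A, TRA2B, HNRNPA3 and HNRNPH1 on the siRNA 1, siRNA 2 and siControl arrays, 1 point per array. TRA2A stands at 6.13 and 7.57 on the knockdown arrays, against 8.42 on the control, and each HNRNPH1 probe is highest on the control, while the TRA2B points lie within 0.20 of each other; heights of different probes cannot be compared.

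The sequence before the start of HNRNPH1 is shown with that of HNRNPA3, since these were the genes of the set below the control by over 0.3 (log2) with both siRNAs at every detected probe whose start windows the RefSeq promoter table (GRCh38.p14) holds. A window runs from 250 bases before to 50 bases after a start, and windows were matched for 30 of the 34 genes (all but SRSF2, HNRNPA1, RBM39 and TRA2A). HNRNPH1 has 4 windows, of which the 2 that hold a searched motif are shown. The motifs searched on both strands were the CCAAT box core (CCAAT), the GC box core (GGGCGG), the TATA box (TATAAA), the cyclic AMP response element (TGACGTCA), the E-box (CACGTG) and an ETS factor core (CCGGAAG). Capitals mark their matches, on either strand, and no matches overlap in these windows.
HNRNPH1, chr5:179624551-179624850, minus strand: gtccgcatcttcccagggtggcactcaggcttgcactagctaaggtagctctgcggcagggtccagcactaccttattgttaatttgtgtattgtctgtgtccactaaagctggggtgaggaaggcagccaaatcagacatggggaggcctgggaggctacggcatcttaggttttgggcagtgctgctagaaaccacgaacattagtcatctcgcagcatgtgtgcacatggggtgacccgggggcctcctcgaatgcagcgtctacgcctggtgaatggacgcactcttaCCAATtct
HNRNPH1, chr5:179623622-179623921, minus strand: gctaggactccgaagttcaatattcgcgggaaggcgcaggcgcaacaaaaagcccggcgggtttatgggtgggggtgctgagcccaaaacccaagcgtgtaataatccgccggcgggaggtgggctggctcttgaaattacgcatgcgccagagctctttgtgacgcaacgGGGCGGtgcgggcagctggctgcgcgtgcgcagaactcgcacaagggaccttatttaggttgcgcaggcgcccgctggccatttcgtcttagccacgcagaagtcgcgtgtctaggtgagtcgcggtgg
HNRNPA3, chr2:177212544-177212843, plus strand: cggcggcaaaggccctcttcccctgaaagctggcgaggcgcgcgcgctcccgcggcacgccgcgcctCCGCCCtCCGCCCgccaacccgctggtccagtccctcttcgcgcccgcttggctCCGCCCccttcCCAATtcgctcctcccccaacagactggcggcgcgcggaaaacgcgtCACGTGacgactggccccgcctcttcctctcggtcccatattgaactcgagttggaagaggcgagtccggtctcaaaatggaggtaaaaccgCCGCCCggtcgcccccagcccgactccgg

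The first HNRNPH1 window holds 1 CCAAT match and the second 1 GGGCGG match (the GC box core), while the HNRNPA3 window holds 4 GGGCGG, 1 CCAAT and 1 CACGTG match. GGGCGG occurs in 45.0% of all 35116 promoter windows and in 66.7% of the 42 windows of the set, and CCAAT in 34.6% and 38.1%. CACGTG, the E-box, is in 7.26% of all windows and 11.9% of those of the set, TATAAA in 11.5% and 14.3%, and CCGGAAG in 10.3% and 14.3%. TGACGTCA, in 1.85% of all windows, is in 0 of the 42. A match describes these letters only and is not a binding site.

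By the rule of 1.5-fold with both siRNAs, 3 of 63 probes were lower (4.76%) and 0 were higher. Over all detected probes the shares were 0.716% lower and 0.462% higher. The 3 were the TRA2A probe and the 2 brighter HNRNPH1 probes. Since TRA2A's lower signal was known when the genes were chosen, the count is also given without it: 2 of 62 probes (3.23%) were lower with both siRNAs, and both belong to HNRNPH1, so they are not independent. The smaller of the 2 differences was 0.915 at ILMN_2101920, 0.859 for TRA2A and 0.590 at ILMN_3246409, which sits just past the limit of 0.585. The nearest below the limit were HNRNPA3 at 0.436 and the dimmest HNRNPH1 probe at 0.358. Both differences of a probe share the 1 control array, so they are not independent of each other.

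With siRNA 1 alone the same 3 probes were past 1.5-fold lower and 0 higher, where 1.87% and 1.66% of all detected probes were. With siRNA 2 alone 4 were lower and 0 higher, where 5.79% and 4.93% of all detected probes were. The fourth was ILMN_3270641 of HNRNPH3, at -0.59, just past the limit of 0.585. The siRNA 2 count of 6.35% is thus near the level of the whole array, and without TRA2A it was 3 of 62 (4.84%). By limma's test 0 of the 63 probes and 0 (0%) of all 20119 passed an adjusted p of 0.05. At an unadjusted p under 0.05 there were 3 lower and 0 higher probes in the set, the same 3, where 1.19% of all detected probes were lower and 0.77% higher. Without TRA2A there were 2 lower of 62 (3.23%), again both of HNRNPH1, and 0 higher.

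**Figure D2:**
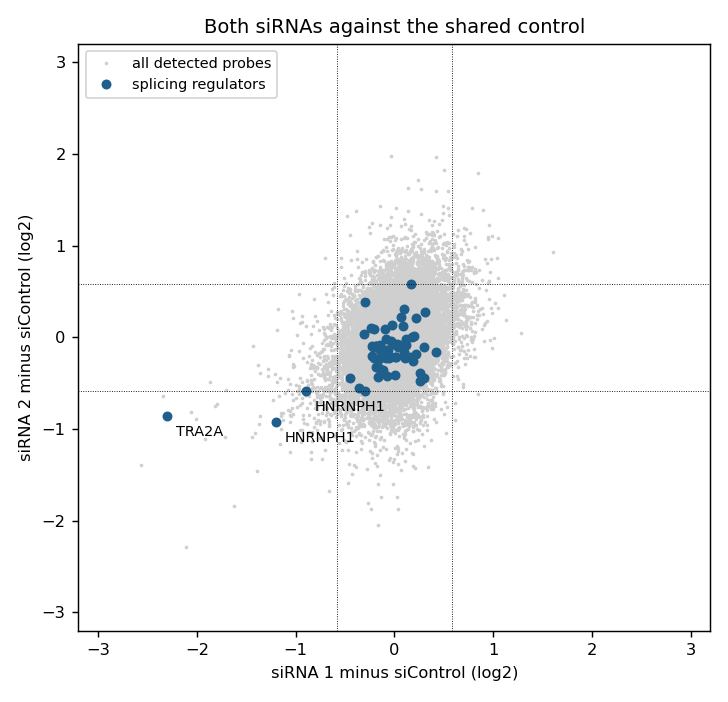
Difference from siControl in log2 units with siRNA 1 (horizontal axis) and with siRNA 2 (vertical axis) for all 20119 detected probes (grey) and the 63 of the splicing regulators (blue), with dotted lines at 1.5-fold. The TRA2A probe and the labelled HNRNPH1 probes lie past both lower limits and most others lie near 0; both axes share the control array, so a slope in the cloud is no measure of agreement.

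Small differences ran mostly downward across the set. Of the 63 probes, 31 (49.2%) were below the control with both siRNAs, 7 (11.1%) were above it with both, and 25 differed in sign between the siRNAs. Over all detected probes 29.1% were below and 30.9% above with both siRNAs. The median difference was -0.10, with -0.06 for siRNA 1 and -0.14 for siRNA 2, where the medians over all detected probes were 0.00 for the mean, 0.00 for siRNA 1 and 0.01 for siRNA 2.

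Since probes of one gene share their transcript, the count was also taken over the brightest probe of each of the 34 genes, where 17 were below and 4 above with both siRNAs (median -0.07). Among probes with a mean log2 signal of at least 8, 28 of 52 were below and 4 above, where 27.7% and 29.8% of all such probes were. Past 1.5-fold lower with both siRNAs were 2 (3.85%), where 0.155% of all such probes were. Both belong to HNRNPH1, so they are not independent and stand for that gene only. The counts against the control depend on the scaling. With array medians set equal in place of quantile normalization, 6 probes were below the control with both siRNAs, and the median turned to 0.02. Of all detected probes, 10.2% were below with both siRNAs under that scaling. In the set 9 probes were above with both. That share of all detected probes was not counted, so the 9 give no direction. That scaling moved the median of all detected probes by 0.11 (0.29 with siRNA 1 and -0.07 with siRNA 2). Relative to that shift 32 probes were below and 6 above, with a median of -0.09. Of all detected probes, 29.4% were below and 29.4% above relative to it.

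**Figure D3:**
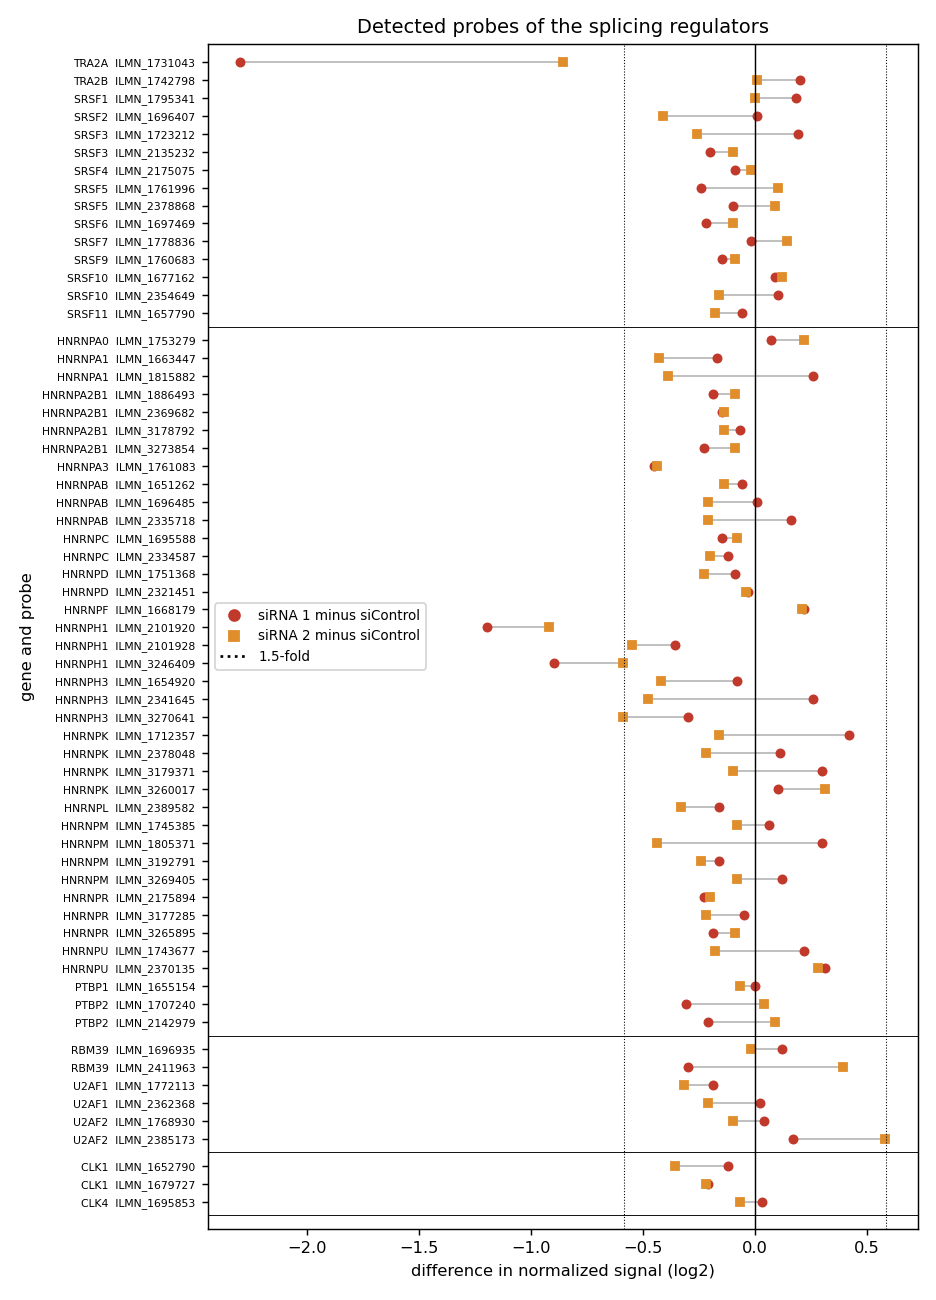
Log2 difference from siControl (horizontal axis) with siRNA 1 (circles) and siRNA 2 (squares) for each of the 63 detected probes, listed by gene on the vertical axis, with horizontal lines between the SR, hnRNP, U2AF and CLK groups and dotted lines at 1.5-fold. TRA2A and 2 of the HNRNPH1 probes lie past the lower limit with both siRNAs, and no probe lies past the upper limit with either.

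Among the 12 SR and TRA2 genes, 6 of 15 probes (40.0%) were below the control with both siRNAs and 2 (13.3%) above. Their median difference was -0.05, and of all detected probes 29.1% were below the control and 30.9% above. SRSF6 and SRSF9, enhancer-binding SR proteins, were below it with both. SRSF6 had a log2 signal of 13.21 and 13.32 with siRNA 1 and siRNA 2, against 13.43 with siControl (mean difference -0.16 ± 0.25, SE). SRSF9 had 13.59 and 13.66, against 13.74 (-0.12 ± 0.24). Both differences were smaller than their errors.

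SRSF2 (SC35), which marks nuclear speckles, had 13.68 with siRNA 1 and 13.26 with siRNA 2, against 13.67 with siControl, so only the siRNA 2 array was low. SRSF1, the founding SR protein, differed by 0.18 and 0.00 with siRNA 1 and siRNA 2, and SRSF7 by -0.02 and 0.14. SRSF4 differed by -0.09 and -0.02 and SRSF11 by -0.06 and -0.18. These values all stay inside the 1.5-fold limits, as the plot of all detected probes shows.

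SRSF10, which acts as a repressor when dephosphorylated, was one of the few above the control with both siRNAs, at 0.09 and 0.12 for its brighter probe. Its other detected probe gave 0.10 and -0.16. SRSF3, the smallest SR protein, gave 0.19 and -0.26 at its brighter probe and -0.20 and -0.10 at the other. SRSF5 had opposite signs at both probes, with -0.24 with siRNA 1 and 0.10 with siRNA 2 at the brighter one. No SR gene other than TRA2A was past 1.5-fold with either siRNA.

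Among the 17 hnRNP genes, 22 of 39 probes (56.4%) were below the control with both siRNAs and 4 (10.3%) above. Their median difference was -0.11, and of all detected probes 29.1% were below the control and 30.9% above. Next to HNRNPH1, HNRNPA3 was the furthest below with both. HNRNPA3, an hnRNP A/B protein, had a log2 signal of 9.17 with siRNA 1 and 9.18 with siRNA 2, against 9.61 with siControl. The knockdown arrays were almost level, and the mean difference was -0.44 ± 0.24 (SE), a 1.36-fold lower signal (SD between the siRNAs 0.01). Its raw signal was 787.8 with siRNA 1 and 535.1 with siRNA 2, against 755.4 with siControl, so before normalization only the siRNA 2 array was below the control.

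HNRNPH3, a relative of HNRNPH1, was below the control at 2 of its 3 probes with both siRNAs. ILMN_3270641 had 11.48 with siRNA 1 and 11.19 with siRNA 2, against 11.78 with siControl (mean difference -0.44 ± 0.26, SE), and ILMN_1654920 differed by -0.08 and -0.42. Its remaining probe, ILMN_2341645, is annotated to another transcript (NM_021644) and gave 0.26 with siRNA 1 and -0.48 with siRNA 2. HNRNPF, also of the H/F family, was above the control instead, with 7.88 with siRNA 1 and 7.87 with siRNA 2, against 7.66 with siControl (0.22 ± 0.24, SE).

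HNRNPA2B1, an abundant RNA packaging and transport protein, was below the control with both siRNAs at all 4 probes, with mean differences from -0.16 to -0.10. HNRNPR was below at all 3 (-0.22 to -0.14), and HNRNPC, which binds runs of U, at both (-0.16 and -0.12). HNRNPD, known as AUF1 for its binding of AU-rich elements, was below at both (-0.16 and -0.04). Each of these differences was smaller than its moderated SE, while the probes of a gene gave the same sign. HNRNPL, which binds CA repeats, had 12.28 and 12.11 with siRNA 1 and siRNA 2, against 12.45 with siControl (-0.25 ± 0.25, SE).

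HNRNPU, a chromatin-associated scaffold, was above the control with both siRNAs at ILMN_2370135, with 8.29 with siRNA 1 and 8.25 with siRNA 2, against 7.98 with siControl (0.29 ± 0.24, SE). At its brighter probe the siRNAs had opposite signs, at 0.22 and -0.18. HNRNPA0 was also above with both (0.07 and 0.22). HNRNPK, which binds runs of C, had opposite signs at 3 of its 4 probes, with siRNA 1 the higher array in each, and 0.10 and 0.31 at the dimmest.

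HNRNPA1, the best known exon silencer of the family, differed by -0.17 and -0.43 at one probe and by 0.26 and -0.39 at the brighter one. HNRNPM had 1 probe below with both siRNAs (-0.16 and -0.24) and 3 of mixed sign. HNRNPAB had means of -0.10, -0.10 and -0.03 over its probes. PTBP1, the repressor that binds pyrimidine tracts, was level on the 3 arrays, with 13.60 and 13.53 with siRNA 1 and siRNA 2, against 13.60 with siControl. PTBP2, its neuronal paralog, was below the control with siRNA 1 only, at -0.31 and -0.21 at its 2 probes, against 0.04 and 0.09 with siRNA 2.

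U2AF2 and U2AF1 form the heterodimer that reads the pyrimidine tract and the AG of the 3' splice site. U2AF1 had 10.83 with siRNA 1 and 10.69 with siRNA 2, against 11.01 with siControl, at its brighter probe (-0.25 ± 0.25, SE), and 0.02 and -0.21 at the other. U2AF2 differed by 0.04 and -0.10 at its brighter probe. Its other probe was not well above background with siControl or siRNA 1, so it gives no fold there.

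RBM39, a U2AF2-like factor, had 9.34 with siRNA 1 and 10.03 with siRNA 2, against 9.64 with siControl, so the control lay between the siRNAs. CLK1 was below the control at both probes, with 10.16 and 10.15 with siRNA 1 and siRNA 2, against 10.37 with siControl, at the brighter one (-0.21 ± 0.24, SE) and a mean of -0.24 at the other. CLK4 differed by 0.03 and -0.07. None of these 5 genes was past 1.5-fold from the control with either siRNA.

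Isoform effects were sought by comparing probes of the same gene within each array. Among the regulators 19 genes had 2 or more detected probes, which gave 42 pairs, and 15 genes had 1. For most, the probes gave nearly the same mean difference, and the median gap between the highest and the lowest probe of a gene was 0.12 (log2). The gap was under 0.2 in 12 of the 19 genes, among them CLK1 (0.02), HNRNPC (0.05) and HNRNPA2B1 (0.05).

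The widest gap was that of HNRNPH1, at 0.60, with the lowest probe at -1.06 and the highest at -0.45. Between ILMN_2101920 and ILMN_2101928 the difference in change was -0.84 with siRNA 1 and -0.36 with siRNA 2 (mean -0.60 ± 0.29, SE), which did not pass limma's test over all 5095 probe pairs of the array (adjusted p = 0.9996). All 3 probes are annotated to NM_005520, while RefSeq lists 52 curated transcripts for the gene. Which exons each probe reads was not analysed here. U2AF2 came next with a gap of 0.40, which rests on its dim probe, detected with siRNA 2 only. HNRNPH3 had a gap of 0.33 and HNRNPU one of 0.27.

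Past 1.5-fold, 1 of 42 pairs (2.38%) differed with siRNA 1, the HNRNPH1 pair above, and 1 (2.38%) with siRNA 2, that of U2AF2, whose dimmer probe was near background. Over all pairs of the array 6.36% and 10.5% did. With both siRNAs the same way 0 of 42 differed, where 1.90% of all pairs did. By limma 0 of the 42 pairs and 0 (0%) of all 5095 passed an adjusted p of 0.05, and at an unadjusted p under 0.05 there were 0 of 42, where 3.55% of all pairs were. The lowest p among the 42 was 0.066.

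**Figure D4:**
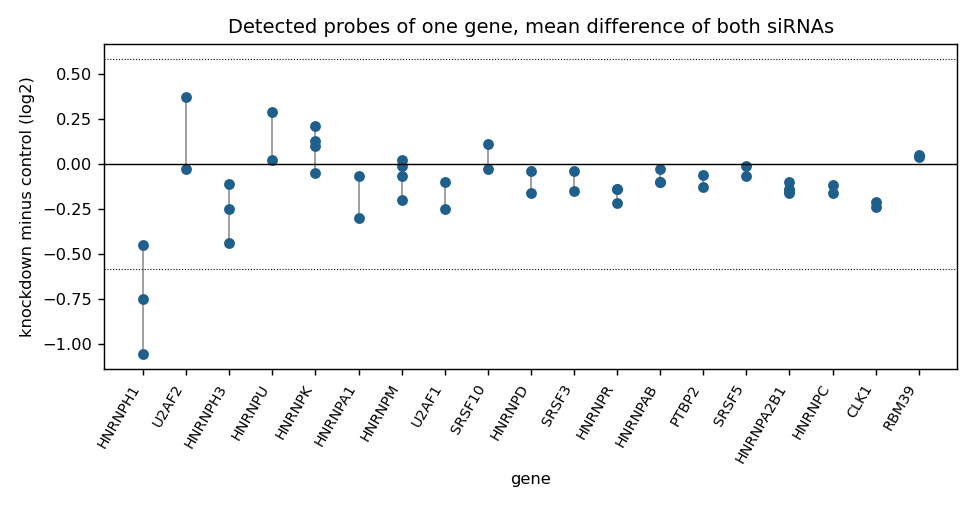
Mean log2 difference of both siRNAs from siControl (vertical axis) at each detected probe of the 19 genes with 2 or more (horizontal axis, ordered by the gap between probes), with 1 point per probe and dotted lines at 1.5-fold. HNRNPH1 has the widest gap (0.60) with all probes below 0, and the gap is under 0.2 in 12 genes.

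The siRNAs were also set against each other, with 1 array each and no test. TRA2A was 2.71-fold lower with siRNA 1 than with siRNA 2, and the brighter RBM39 probe 1.61-fold lower. On the other side, dim probes of HNRNPM and HNRNPH3 gave siRNA 1 signals 1.67-fold and 1.66-fold above those of siRNA 2, and the brighter HNRNPA1 probe 1.57-fold. These 2 lower (3.17%) and 3 higher (4.76%) probes compare with 4.62% and 5.84% of all detected probes, so the set did not stand out between the siRNAs. HNRNPH1 differed by at most 0.31 between the siRNAs at any probe.

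Other genes of splicing control were described from lists of their own. The probes named had the same sign with both siRNAs and the largest smaller difference of their list, so they do not stand for it. Of all detected probes, 29.1% were below the control with both siRNAs and 30.9% above. Of 32 probes of other SR-type and SR-related proteins, 15 were below the control with both siRNAs and 8 above (median -0.10). THRAP3, which associates with spliceosomes, had 7.25 with siRNA 1 and 7.22 with siRNA 2, against 7.78 with siControl. BCLAF1, its relative, differed by -0.31 and -0.69 at its brighter named probe and LUC7L3, related to a yeast U1 snRNP protein, by -0.41 and -0.29.

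Of 33 probes of other hnRNP-type proteins, 16 (48.5%) were below with both siRNAs and 9 (27.3%) above (median -0.14). TAF15 and EWSR1, of the FET family, lay on opposite sides, at -0.64 and -0.31 for TAF15 and at 0.57 and 0.37 for EWSR1 with siRNA 1 and siRNA 2. MATR3, a nuclear matrix protein, was at -0.51 with siRNA 1 and not well above background with siRNA 2 at the probe named. HNRNPH2 was at 0.28 and 0.37 at the dimmer of its probes.

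Of 35 probes of other splicing regulators, 12 (34.3%) were below with both and 3 (8.57%) above (median -0.07). MBNL2, a muscleblind protein, was at -0.42 and -0.35 at one probe and at -0.17 and -0.61 at another. U2SURP was at -0.44 and -0.29 and RBM22 at -0.26 and -0.40. Of 9 probes of other SR protein kinases and related kinases, 3 (33.3%) were below and 2 (22.2%) above. CDK12 was at -0.61 and -0.25, while SRPK2 gave -0.18 and -0.36 at one probe and 0.66 and 0.14 at another. DYRK1A was at -0.06 and -0.14.

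In the core spliceosome more probes were above the control with both siRNAs than below. Of its 63 probes, 15 (23.8%) were below the control with both siRNAs and 24 (38.1%) above, with a median of 0.03. Of all detected probes, 29.1% were below and 30.9% above, with a median of 0.00. DDX39B, the UAP56 helicase, had 6.35 with siRNA 1 and 6.28 with siRNA 2, against 5.53 with siControl. It was the only probe of these 5 lists past 1.5-fold the same way with both siRNAs. Its control signal was near the lowest detected on that array (5.28). SF3B1, which holds the branch site, was at -0.61 and -0.58, SNRPD3 at -0.44 and -0.63 and SF1, the branch point binding protein, at 0.57 and 0.38. No probe of the 5 lists passed limma's test (0 at an adjusted p under 0.05), and the difference between lists was not tested.

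**Figure D5:**
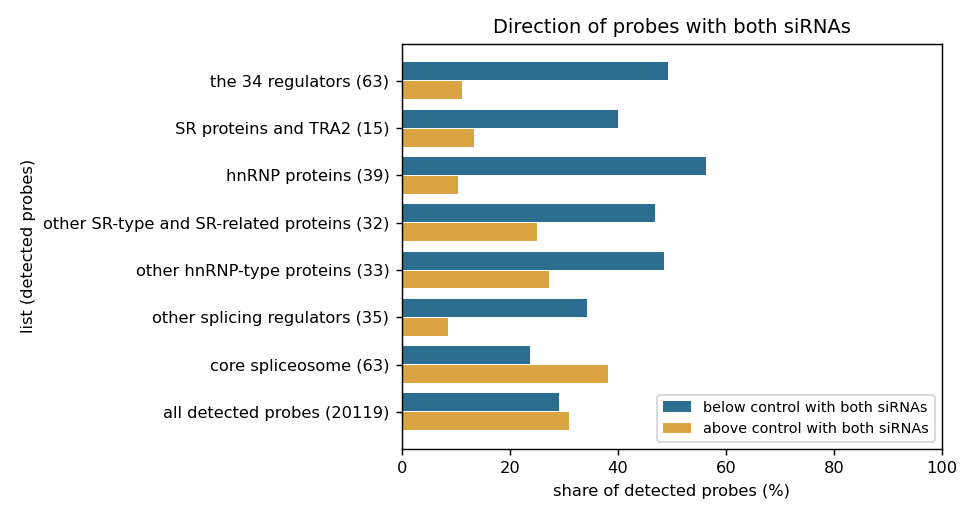
Share of detected probes in percent (horizontal axis) that lay below (blue) or above (yellow) the control with both siRNAs, for the 34 regulators, their SR and hnRNP groups, 4 other splicing lists and all detected probes, with the number of probes in brackets. The regulators show 49.2% below and 11.1% above and all detected probes 29.1% below and 30.9% above. These are the shares after quantile normalization. Equal array medians shift all probes, those of the regulators included, and 10.2% of all detected probes were then below with both siRNAs.

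The authors' deposited table of log fold changes, whose log base its header does not state, holds 45 accessions of the set. In the authors' deposited table TRA2A is at -0.89, rank 3 from the lowest of 39747 accessions, and HNRNPH1 at -0.68, rank 16. HNRNPA3 is at -0.37 and HNRNPH3 at -0.34 and -0.05 for its 2 accessions in the authors' deposited table, and TRA2B at 0.10. None of the 45 (0) is in the class that the authors' deposited table calls up-regulated, which holds 1036 of the 39747 accessions and starts at 0.20. With so small a class, 0 of 45 is no result about the set. HNRNPU, at 0.20 and 0.01 for its 2 accessions, lies at that limit with the first and is outside the class.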

How the data were processed

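Gene expression was measured on 3 Illumina BeadChip arrays (siRNA 1, siRNA 2, siControl). The deposited non-normalized table holds, per the file headers, an intensity and its detection p-value for every probe on each array; each detection column was tied to its array by header order (Spearman's rho with the signal -0.987, -0.985 and -0.984). The authors also deposited normalized intensity values and a table of log fold changes (treated as log2, base not stated) with a class of 0 or 1 per accession (another unit). Per the submitters' processing notes lumi was used; its version is not given in the sources used here.

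Background correction and quantile normalization followed neqc of limma 3.58.1 (R 4.3.3), with an offset of 16, and gave log2 values. The platform annotation paired 30113 of the 47323 probes with 1 symbol and 8 with several, leaving 17202 unnamed here. Both siRNA arrays were set against the control array in limma (lmFit, eBayes, two-sided, Benjamini-Hochberg over 20119 detected probes), with 1 residual and 5.78 prior degrees of freedom, so SEs are drawn mostly from the variance over all probes. Probe pairs of one gene were fitted alike on within-array differences. Single siRNAs were compared by a 1.5-fold rule. The number of arrays limits the precision. Members, lists and rules were chosen with earlier results of these data known, TRA2A's lower signal included. Named were TRA2A and TRA2B, probes past 1.5-fold, the brightest probe of each other member, and further member probes where probes of a gene were compared. Per other list, up to 4 probes of the same sign with both siRNAs were named, those with the largest smaller difference. HNRNPH2's second probe was chosen after its values were seen. Alternatives were no background correction, an offset of 50, equal array medians, other detection filters, the authors' values, a trend and robust prior, and leaving out each siRNA.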

Additional observations from a re-analysis of the deposited data

How the results depend on the processing

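TRA2A stayed below the control under every setting tried, with means from -1.58 to -1.23. Single siRNAs gave it -2.30 to -0.86 as reported here, and over the settings -2.30 to -1.75 with siRNA 1 and -0.95 to -0.72 with siRNA 2. The HNRNPH1 probes also stayed below, at -1.06 to -0.95, -0.75 to -0.62 and -0.45 to -0.34. None passed limma under any setting (0 calls each, over probes and over pairs). The count of 3 probes lower with both siRNAs was 3 under each planned setting, and 2 under each of 4 settings chosen after seeing the data: equal array medians relative to the shift of all probes, probes of a mean log2 signal of at least 8, the brightest probe of each gene, and all members without TRA2A. Equal array medians turned the median difference to 0.02, gave 6 probes below with both siRNAs, 4 higher with siRNA 1, and 19 higher and 1 lower for siRNA 1 against siRNA 2; that setting shifts all probes. Probes higher with siRNA 1 than with siRNA 2 numbered 1 without background correction and 1 with the authors' values, where the cause was not tested. The 4 probes lower with siRNA 2 became 3 without background correction, 3 with an offset of 50 and 5 with equal array medians. Without background correction and with an offset of 50, ILMN_3270641 of HNRNPH3 was at -0.58 with siRNA 2. The brightest probe of each gene gave 17 below and 4 above, and probes of a mean log2 signal of at least 8 gave 4 above; both have fewer probes. Over single siRNAs the median ran from -0.14 to -0.06, where the medians over all detected probes were 0.00 with siRNA 1 and 0.01 with siRNA 2. Probes below the control ran from 37 to 50 and those above from 13 to 26. The matching shares of all detected probes were not counted, so these counts describe the set only. Probe pairs past 1.5-fold were 1 with either siRNA. The mean difference of a probe moved by more than the SD between the siRNAs at 28 of 63 probes with equal array medians, at 5 with the authors' values, and at 3 each with an offset of 50 and without background correction. No paired analysis was possible because the control has 1 array, so the groups share fewer than 2 replicate numbers. The 3 arrays, 1 of them the control, limit every comparison, and dim probes are limited by their signal over background.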
